A study of Solanum lycopersicum with 24 samples.

Results

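The aquaporin genes of tomato fruit were followed in the epicarp (the skin) and the mesocarp (the flesh) of a purple tomato, Solanum lycopersicum of the genotype MT-Aft/atv/hp2. A gene was counted as an aquaporin where its deposited description holds aquaporin, tonoplast intrinsic, plasma membrane intrinsic or nodulin-26-like intrinsic, and 30 of 34689 genes did. The libraries form 8 groups of 3. In each tissue, fruit from flowers wrapped in aluminium foil for 30 days from anthesis was taken 0, 2 or 5 days after the foil came off (0 d, 2 d and 5 d), and control fruit had been in light for 30 days. All 24 libraries carry the same genotype. Aft and atv are alleles that raise fruit anthocyanin and hp2 is one that heightens the light response, so no fruit without them is compared. Darkness and the foil cover itself cannot be told apart, nor can time in light and age, since 2 d and 5 d fruit were older at harvest than the 30 days of the controls. The labels do not say that replicates came from separate plants, so p-values measure the spread between these libraries.

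Aquaporins are channel proteins that let water, and in some cases small neutral solutes, cross a membrane. Plasma membrane intrinsic proteins (PIPs) sit in the cell's outer membrane. PIP2 proteins are efficient water channels on their own, whereas most PIP1 proteins need a PIP2 partner to reach that membrane. Tonoplast intrinsic proteins (TIPs) sit in the membrane of the vacuole, the water store that fills most of a fruit cell and drives its expansion. The 30 genes comprised 3 PIP1, 7 PIP2 and 16 TIP genes and 4 whose description names no subfamily, and they lie on all 12 chromosomes of build SL4.0. The description words did not match 20 other genes of the wider family (11 NOD26-like, 6 X-intrinsic and 3 small basic intrinsic proteins), which were not analysed here.

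Total reads per library ran from 18402751 to 23197867, and a gene with 0 reads was bounded at 3 reads by counting error alone. The tissue labels were checked with 4 cuticle genes (CD1, GPAT6, CER3 and CER6), whose summed level ran from 243 to 8779 TPM in epicarp and from 2.6 to 588 TPM in mesocarp. The sum set the tissues apart at 2 d, 5 d and control and not at 0 d. There mesocarp replicate 1, at 588 TPM, was above epicarp replicates 2 and 3, at 456 and 541 TPM. Taken singly, CER3 and CER6 did set the tissues apart at 0 d, whereas CD1 and GPAT6 overlapped. CER3 was at 18.5 to 47.0 TPM in epicarp and 0.205 to 1.21 TPM in mesocarp. CER6 was at 334 to 968 TPM in epicarp and 6.14 to 78.9 TPM in mesocarp. Libraries within a group stood apart on these and on ripening markers. The cuticle enzyme CD1 was at 5746, 73.6 and 0.274 TPM in epicarp 0 d replicates 1, 2 and 3, and mesocarp 0 d replicate 1 had 370.5 TPM, against at most 2.1 TPM in the other mesocarp libraries. Epicarp 5 d replicate 3 had 882 TPM of CD1, and the other 5 d epicarp libraries 2.2 and 4.8 TPM. The ripening regulator NOR was at 197 and 36.3 TPM in replicate 3 of epicarp and mesocarp at 0 d, and at 5.9 TPM or less in the other 0 d libraries. Results at 0 d are therefore also given with both libraries numbered 1 or both numbered 3 left out, a choice made after seeing the data. NOR also spread at 5 d, at 25.9, 8.77 and 1.37 TPM in epicarp and 26.6, 22.3 and 3.37 TPM in mesocarp. A further ripening marker, E8, was at 124, 197 and 2763 TPM in epicarp at 0 d. In mesocarp it was at 2291, 2122 and 2666 TPM at 0 d and at 1487 to 2843 TPM in control. In such bulk samples, fewer cells of a type and less RNA per cell cannot be told apart.

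As a family, aquaporin transcripts were lower in skin than in flesh, and lowest in the skin of light-grown fruit. Levels are given in TPM, which scales reads by the length of the gene, introns included, and by library. The summed level of the 30 genes was 1265, 1489.8 and 1353 TPM in epicarp and 2031, 2501 and 3617 TPM in mesocarp at 0 d. At 2 d the sums were 2269.9, 1936 and 1803 TPM in epicarp and 3405, 3289 and 2859 TPM in mesocarp. Skin was below flesh in every library of each of these stages. At 5 d they were 1784, 1631 and 1681 TPM in epicarp and 3075, 2627 and 2633 TPM in mesocarp. Control fruit had 963, 936 and 1017 TPM in epicarp and 1823, 1621 and 1925 TPM in mesocarp. In both tissues every library from covered fruit was above every control library of that tissue. The means were 1369 ± 113, 2003 ± 241, 1699 ± 78.4 and 972 ± 41.3 TPM in epicarp at 0 d, 2 d, 5 d and control, and 2716 ± 815, 3184.5 ± 288, 2778 ± 257 and 1789.6 ± 155 TPM in mesocarp (SD, n = 3 each).

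**Figure D1:**
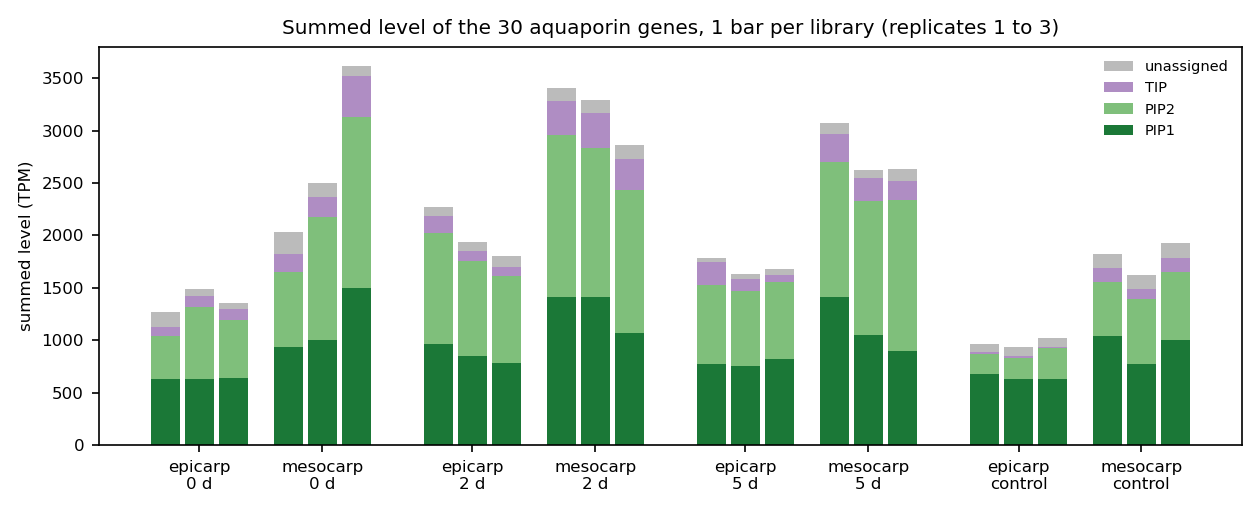
Summed level of the 30 aquaporin genes in TPM, with 1 bar per library, split into PIP1, PIP2, TIP and unassigned genes. Epicarp bars stand below mesocarp bars at each stage, and the TIP share of the control epicarp, with a mean of 18.2 TPM, is barely visible.

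A few genes made up most of this sum. PIP2.6 and PIP1.5 together held between 59.0% and 76.9% of it in each library. Of the 30 genes, 13 had a mean above 10 TPM over all libraries and 14 had a mean below 1 TPM. The 7 PIP2 genes summed to 232 ± 52.0 TPM in control epicarp and 594 ± 69.8 TPM in control mesocarp (SD, n = 3 each). The 16 TIP genes summed to 18.2 ± 1.6 TPM in control epicarp and 121 ± 23.7 TPM in control mesocarp. Such sums give little weight to the reads of long genes. TIP2.2 spans 9236 bases, and its 2262 reads in control epicarp and 1746 in control mesocarp made means of 10.4 and 9.02 TPM. At 0 d the PIP2 sums were 551 ± 135 TPM in epicarp and 1176 ± 460.4 TPM in mesocarp, and the TIP sums 98.7 ± 12.3 TPM in epicarp and 249 ± 123 TPM in mesocarp. The 3 PIP1 genes summed to 632 ± 4.9 TPM in epicarp at 0 d and 643 ± 26.4 TPM in epicarp control, so the skin's difference in the sum between these groups lay in the PIP2 and TIP genes. The filter on low reads left 21 members for testing (3 PIP1, 6 PIP2, 8 TIP and the 4 unassigned), and the members it removed are given at the end.

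Between the tissues, most called members were lower in skin. A member is called where the adjusted p of edgeR's quasi-likelihood test, Benjamini-Hochberg adjusted over all genes tested, is under 0.05. In epicarp against mesocarp at 0 d, 1 member was higher and 9 were lower of the 21 tested, where 18.3% of all 19620 genes were called (8.78% higher and 9.57% lower). At 2 d 0 members were higher and 6 lower, where 18.5% of all genes were called (8.2% higher and 10.3% lower). At 5 d 0 were higher and 8 lower, where 17.5% were called (7.12% and 10.4%). In control fruit 2 were higher and 7 lower, where 26.8% were called (13.2% and 13.6%). The median log2 difference of the tested members was -0.97 at 0 d, -0.83 at 2 d, -0.48 at 5 d and -0.56 in control fruit, and that of all genes lay between -0.02 and 0.01.

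TIP1.1, TIP4.1, PIP2.1 and the unassigned aquaporin Solyc01g094690.5 were lower in epicarp at all 4 stages. The count of 10 at 0 d became 5 without mesocarp 0 d replicate 3, 6 without mesocarp 0 d replicate 1, 4 with both 0 d libraries numbered 3 left out, and 0 where only the 6 libraries compared set the spread (7 with an unadjusted p under 0.05). With both libraries numbered 3 left out, the 0 d calls of PIP2.6, TIP1.1, TIP4.1, PIP1.5, PIP2.9 and Solyc01g094690.5 had adjusted p between 0.0641 and 0.248, and with both numbered 1 left out the calls of Solyc01g094690.5 and Solyc09g007760.5 did not pass. The count of 8 at 5 d became 5 without epicarp 5 d replicate 3. In control fruit the count of 9 became 5 without epicarp control replicate 2 and 4 without mesocarp control replicate 3. At 0 d, 2 d and 5 d the replicate numbers were taken to pair skin and flesh. The labels do not state this, and the correlations behind it were weak at 2 d (0.124 to 0.171). With that pairing as a block 14, 9 and 10 members were called at these stages.

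Within the skin, every member called against control was higher in fruit that had been covered. The share called was 14.3% at 0 d and 23.8% at 5 d, where that of all genes was 19.1% and 14.9%. In each of these comparisons 9 of the 21 members had a log2 difference below 0, none of them called. In epicarp at 0 d against control, 3 members were higher and 0 lower (19.1% of all genes were called, 10.1% higher and 9.08% lower), namely PIP2.6, TIP1.1 and TIP2.2. At 2 d against 0 d, 5 were higher and 1 lower (36.7%, as 17.6% and 19%). At 5 d against 2 d, 0 were higher and 1 lower (3.27%, as 1.06% and 2.21%). In epicarp at 5 d against control, 5 were higher and 0 lower (14.9%, as 8.42% and 6.51%), namely TIP3.2, TIP1.1, PIP2.1, PIP2.6 and PIP2.9. The median log2 differences of the tested members were 0.63, 0.44, -0.29 and 0.41 in these 4 comparisons, where those of all genes were 0.04, -0.07, 0.02 and 0.00. Without epicarp 0 d replicate 1 the count at 0 d against control was 6, and with both 0 d libraries numbered 1 or both numbered 3 left out it was 7 and 5. The count of 1 at 5 d against 2 d became 3 without epicarp 5 d replicate 3.

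In the flesh, too, the members called against control were higher in covered fruit. The share called at 0 d was 14.3%, where that of all genes was 4.3%. At 5 d 4 of the 21 members were called, a share near the 20.3% of all genes. Of the 21, 5 at 0 d and 7 at 5 d had a log2 difference below 0, none of them called. Among these, TIP4.1 did not overlap with control at either stage. PIP1.7, Solyc08g077950.1 and Solyc04g161850.1 did not overlap with it at 5 d. In mesocarp at 0 d against control, 3 members were higher and 0 lower (4.3% of all genes were called, 2.4% higher and 1.9% lower), namely TIP1.1, PIP2.9 and PIP2.6. At 2 d against 0 d, 3 were higher and 1 lower (24.1%, as 13.3% and 10.8%). At 5 d against 2 d, 0 were higher and 1 lower (2.51%, as 1.07% and 1.44%). In mesocarp at 5 d against control, 4 were higher and 0 lower (20.3%, as 12.6% and 7.71%), namely TIP3.2, PIP2.9, TIP1.1 and PIP2.6. The median log2 differences were 0.39, 0.20, -0.08 and 0.63, and those of all genes were 0.01, -0.05, 0.02 and 0.00. The count of 4 at 2 d against 0 d became 1 without mesocarp 2 d replicate 1. The count of 1 at 5 d against 2 d became 0 without mesocarp 2 d replicate 1 or 3, or mesocarp 5 d replicate 1 or 2. With only the groups compared, the count of 3 at 0 d against control became 0, and 6 members had an unadjusted p under 0.05 there. With both 0 d libraries numbered 1 left out that count was 6. Each of the 4 stages enters 2 of these comparisons within a tissue.

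**Figure D2:**
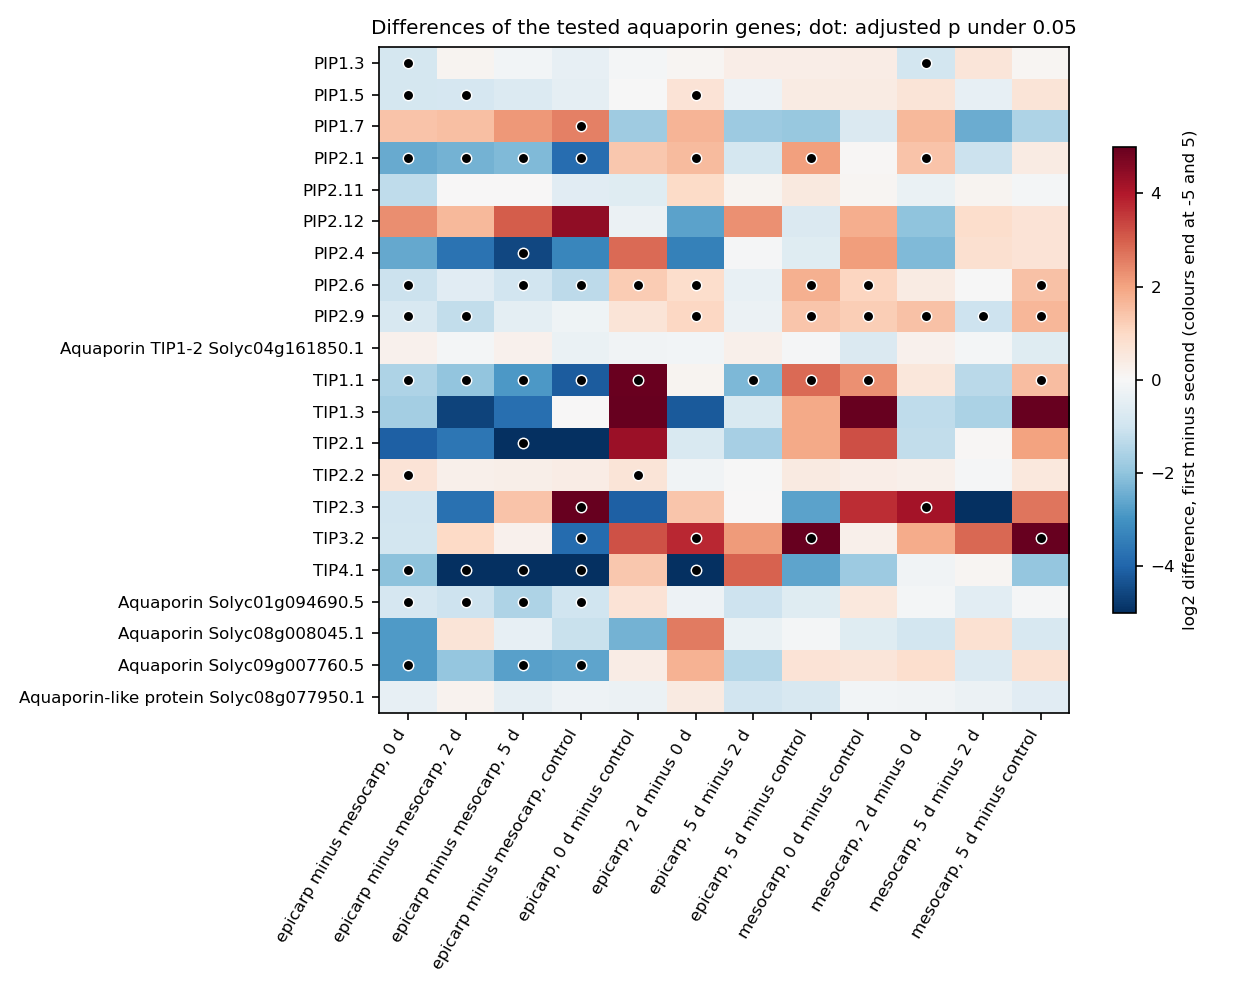
Log2 difference of each of the 21 tested aquaporin genes (rows) in the 12 comparisons of tissues and stages (columns, first group minus second), from blue (lower) to red (higher), with colours ending at -5 and 5. A dot marks an adjusted p under 0.05. The 4 tissue columns hold mostly blue dots, and the columns of covered fruit against control hold red dots alone.

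PIP2.6 (Solyc11g069430.2, chromosome 11, 52075798 to 52078862, SL4.0), a PIP2 water channel, had the highest mean level of the family. It was at 341, 612 and 476 TPM in epicarp at 0 d, 927, 802 and 705 TPM at 2 d, 659, 606 and 631 TPM at 5 d, and 151, 173 and 247 TPM in control. In mesocarp it was at 582, 1072 and 1349 TPM at 0 d, 1243, 1142 and 1070.4 TPM at 2 d, 1129.7, 1133 and 1267 TPM at 5 d, and 444, 549 and 559.5 TPM in control. In both tissues the control libraries were the lowest and did not overlap with those of any covered stage. The tissues overlapped at 0 d only. The log2 difference of epicarp from mesocarp was -1.07 ± 0.25 (SE) at 0 d (adjusted p = 0.00566), -0.94 ± 0.25 at 5 d (adjusted p = 0.0123) and -1.29 ± 0.25 in control fruit (adjusted p = 0.000744). At 2 d the log2 difference of -0.58 ± 0.25 did not pass (adjusted p = 0.108), whereas with the pairing as a block it was -0.59 (adjusted p = 0.0111).

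Against control, PIP2.6 rose in covered fruit of both tissues. Its log2 difference was 1.29 ± 0.25 in epicarp at 0 d (adjusted p = 0.00157) and 1.80 ± 0.25 at 5 d (adjusted p = 0.0002). At 2 d it was a further 0.89 ± 0.25 above 0 d in epicarp (adjusted p = 0.00824). In mesocarp the difference from control was 1.06 ± 0.25 at 0 d (adjusted p = 0.0206) and 1.45 ± 0.25 at 5 d (adjusted p = 0.00042). The mesocarp call at 0 d did not pass without mesocarp 0 d replicate 3 or mesocarp control replicate 1 or 2, with adjusted p between 0.0546 and 0.0881. Skin and flesh moved by amounts whose difference did not pass in any comparison (0.23 ± 0.35 for 0 d against control, adjusted p = 0.803).

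PIP1.5 (Solyc08g081190.3, chromosome 8, 62383440 to 62386686) was the most abundant PIP1 gene. Its levels were 406, 448 and 558 TPM in epicarp at 0 d, 781, 687 and 602 TPM at 2 d, 627, 552 and 573 TPM at 5 d, and 503, 441 and 427 TPM in control. Mesocarp had 630.2, 689 and 1259 TPM at 0 d, 1288, 1269 and 919 TPM at 2 d, 1202, 842 and 690.2 TPM at 5 d, and 806, 530.5 and 765 TPM in control. Each epicarp library was below each mesocarp library of its stage, and the flesh at 0 d and 5 d spread widely. The skin was lower at 0 d (log2 difference -0.88 ± 0.25, adjusted p = 0.0212) and at 2 d (-0.83 ± 0.25, adjusted p = 0.028). Without epicarp 0 d replicate 1 or mesocarp 0 d replicate 3 the first did not pass (adjusted p between 0.0547 and 0.117). The second did not pass without epicarp 2 d replicate 2 or 3, or mesocarp 2 d replicate 1 or 2 (0.0721 to 0.105). At 5 d the log2 difference was -0.69 ± 0.25 (adjusted p = 0.0652), and -0.65 with the pairing as a block (adjusted p = 0.0106). The rise of 0.69 ± 0.25 in epicarp at 2 d against 0 d (adjusted p = 0.0394) did not pass without replicate 1 or 2 of either group, at 0.0693 to 0.117.

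PIP1.3 (Solyc12g056220.2, chromosome 12, 61771419 to 61773607) differed in fewer comparisons. Epicarp had 212, 179 and 70.4 TPM at 0 d, 159, 137 and 159.6 TPM at 2 d, 147, 195 and 235 TPM at 5 d, and 142, 150.2 and 185 TPM in control. Mesocarp had 306, 310.1 and 232 TPM at 0 d, 112, 135 and 143 TPM at 2 d, 206, 203 and 211 TPM at 5 d, and 231, 236 and 233 TPM in control. At 2 d its mesocarp libraries were the lowest of that tissue, whereas its epicarp was at much the same level at each stage apart from the low 0 d replicate 3. It fell in mesocarp by 0.92 ± 0.27 on the log2 scale at 2 d against 0 d (adjusted p = 0.0166), which did not pass without mesocarp 0 d replicate 1 or 2, or mesocarp 2 d replicate 1 (0.0545 to 0.0632). At 0 d the epicarp was lower than the mesocarp (log2 difference -0.87 ± 0.27, adjusted p = 0.029), a call lost without mesocarp 0 d replicate 1 or 2 (0.0736 to 0.074). The 2 d against 0 d change in epicarp exceeded that in mesocarp by 1.02 ± 0.38, which did not pass (adjusted p = 0.211). With the replicate number as a block, which was taken to pair the tissues at both stages, it was 1.17 and passed (adjusted p = 0.0386).

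PIP1.7 (Solyc03g096290.3, chromosome 3, 52836346 to 52837864) was the 1 PIP called higher in skin. In control fruit it was at 28.1, 34.6 and 17.04 TPM in epicarp and 4.26, 8.62 and 2.95 TPM in mesocarp, with no overlap and a log2 difference of 2.50 ± 0.79 (adjusted p = 0.0237). That call was lost without epicarp control replicate 1 or 2, or mesocarp control replicate 1 or 3, at 0.053 to 0.0936. The differences at 0 d, 2 d and 5 d were 1.44, 1.51 and 2.16 and did not pass (adjusted p = 0.213, 0.183 and 0.0772). At 5 d the epicarp libraries were at 1.55, 2.55 and 16.6 TPM and the mesocarp libraries at 1.23, 2.28 and 0.928 TPM. The high one is the epicarp replicate 3 that also had the high CD1 level, whose part in it was not tested.

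PIP2.9 (Solyc10g055630.2, chromosome 10, 56169976 to 56171703) peaked at 2 d in the flesh. Epicarp had 67.6, 68.4 and 45.6 TPM at 0 d, 128, 98.6 and 117 TPM at 2 d, 79.6, 114 and 90.5 TPM at 5 d, and 43.8, 28.4 and 39.8 TPM in control. Mesocarp had 101, 80.0 and 137 TPM at 0 d, 243, 250.5 and 268 TPM at 2 d, 98.6, 133 and 152 TPM at 5 d, and 38.1, 49.0 and 59.0 TPM in control. The 2 d mesocarp libraries were above all others, and the controls of both tissues were below every covered library of their tissue. Its rise at 2 d against 0 d was 1.04 ± 0.23 on the log2 scale in epicarp (adjusted p = 0.00176) and 1.46 ± 0.23 in mesocarp (adjusted p = 0.000148). Against control it was 1.24 ± 0.23 higher in mesocarp at 0 d (adjusted p = 0.00666), 1.65 ± 0.24 higher in mesocarp at 5 d (adjusted p = 6.87e-05) and 1.39 ± 0.24 higher in epicarp at 5 d (adjusted p = 0.00087). It fell in mesocarp by 1.04 ± 0.23 at 5 d against 2 d (adjusted p = 0.0192), which did not pass without mesocarp 2 d replicate 1 or 3, or mesocarp 5 d replicate 1 or 2 (0.0641 to 0.0972). The skin was below the flesh at 0 d (log2 difference -0.81 ± 0.23, adjusted p = 0.0205) and at 2 d (-1.23 ± 0.23, adjusted p = 0.000975). The 0 d call was lost without epicarp 0 d replicate 3 or mesocarp 0 d replicate 3, at 0.0733 to 0.089.

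**Figure D3:**
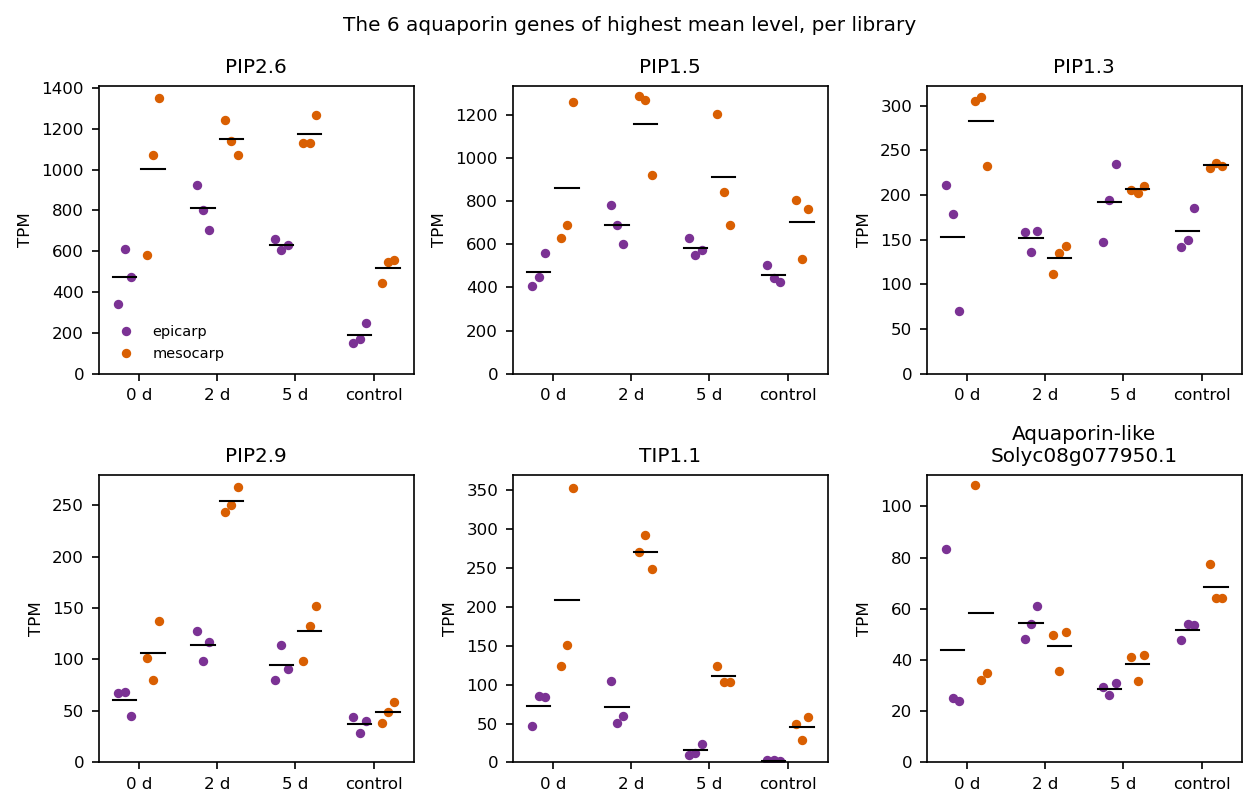
Level in TPM of the 6 aquaporin genes of highest mean in each library, by stage, with epicarp (purple) left of mesocarp (orange) and the mean of 3 libraries as a line. PIP2.6 and PIP2.9 are lowest in control fruit of both tissues, and TIP1.1 in control epicarp is between 1.67 and 2.61 TPM.

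PIP2.1 (Solyc09g007770.3, chromosome 9, 1320678 to 1322198) was lower in skin at each stage. It was at 1.42, 2.53 and 3.01 TPM in epicarp and 24.7, 9.46 and 5.36 TPM in mesocarp at 0 d, and at 8.87, 5.09 and 5.03 TPM in epicarp and 42.4, 23.9 and 25.9 TPM in mesocarp at 2 d. At 5 d it was at 4.56, 3.34 and 2.45 TPM in epicarp and 18.2, 10.7 and 16.9 TPM in mesocarp, and in control fruit at 0.826, 0.569 and 1.21 TPM in epicarp and 12.03, 15.8 and 13.7 TPM in mesocarp. The tissues overlapped at none of these stages. The log2 difference of epicarp from mesocarp was -2.52 ± 0.48 at 0 d (adjusted p = 0.00124), -2.35 ± 0.46 at 2 d (0.00124), -2.19 ± 0.46 at 5 d (0.00281) and -3.82 ± 0.52 in control fruit (2.45e-05). In epicarp it rose by 1.58 ± 0.47 at 2 d against 0 d (adjusted p = 0.0125) and was 2.03 ± 0.51 above control at 5 d (adjusted p = 0.0113). Neither call is independent of single libraries: the first was lost without epicarp 0 d replicate 1 or 2 d replicate 1 (0.0561 to 0.069) and the second without epicarp 5 d replicate 1 or control replicate 2 (0.0644 to 0.0651). In mesocarp the rise of 1.42 ± 0.44 at 2 d against 0 d (adjusted p = 0.0248) was lost without mesocarp 0 d replicate 2 or 3, or mesocarp 2 d replicate 1 (0.0891 to 0.145).

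The neighbour of PIP2.1, an unassigned aquaporin (Solyc09g007760.5, chromosome 9, 1315238 to 1316503), lies 4174 bases away on the other strand. Its epicarp libraries were at 2.14, 0.112 and 3.00 TPM at 0 d and 2.09, 1.17 and 0.485 TPM in control, and its mesocarp libraries at 25.05, 8.95 and 2.62 TPM at 0 d and 7.61, 6.94 and 11.4 TPM in control. The tissues overlapped at 0 d, through mesocarp replicate 3, and not in control fruit. It was lower in epicarp at 0 d (log2 difference -2.85 ± 0.79, adjusted p = 0.017), at 5 d (-2.70 ± 0.78, adjusted p = 0.0217) and in control fruit (-2.62 ± 0.79, adjusted p = 0.0194). Without mesocarp 0 d replicate 1 the first had an adjusted p of 0.109. The second did not pass without epicarp 5 d replicate 1 or 3 or mesocarp 5 d replicate 3 (0.0697 to 0.0899), nor the third without epicarp control replicate 2 or 3 or mesocarp control replicate 3 (0.0603 to 0.0864). At 2 d the tissues did not overlap, but the log2 difference of -1.93 ± 0.74 did not pass (adjusted p = 0.0768). Nor did it pass with the pairing as a block (adjusted p = 0.076). How the counting treated reads that match several family members is not stated in the labels, so the split of reads between similar genes such as these is uncertain.

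PIP2.4 (Solyc06g011350.3, chromosome 6, 6612270 to 6614213) varied widely between libraries of 1 group. At 0 d it was at 0.348, 1.76 and 26.7 TPM in epicarp and 3.80, 14.9 and 142 TPM in mesocarp. In both tissues replicate 3 was the highest, the library with the highest NOR of its group, while the polygalacturonase gene PG2a was at 302 TPM in that epicarp library and 6.97 TPM in that mesocarp library. The part of ripening stage in these levels was not tested. At 5 d it was at 1.64, 0 and 0.726 TPM in epicarp and 47.2, 3.49 and 3.38 TPM in mesocarp, without overlap, a log2 difference of -4.56 ± 1.53 (adjusted p = 0.047). Any 1 of the epicarp 5 d libraries or mesocarp 5 d replicate 1 was enough to lose this call when left out (0.0706 to 0.378). With the pairing as a block it was also lower in epicarp at 0 d (log2 difference -2.83, adjusted p = 0.00202) and 2 d (-3.76, adjusted p = 0.000529), where it did not pass without the block (0.19 and 0.0938).

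TIP1.1 (Solyc06g074820.3, chromosome 6, 44022505 to 44024857), a vacuolar water channel, was the most abundant TIP and the called member with the largest change in skin at 0 d against control. It was at 46.4, 85.9 and 84.4 TPM in epicarp at 0 d, 105, 51.2 and 59.8 TPM at 2 d, 9.84, 12.6 and 24.2 TPM at 5 d, and 2.61, 2.52 and 1.67 TPM in control. In mesocarp it was at 124, 151 and 352 TPM at 0 d, 271, 293 and 248 TPM at 2 d, 125, 104 and 104 TPM at 5 d, and 49.4, 28.6 and 58.3 TPM in control. Controls were lowest in both tissues, no covered group overlapped with them, and in epicarp the 5 d libraries lay between control and the earlier stages.

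Against control, TIP1.1 in epicarp was 4.94 ± 0.48 higher on the log2 scale at 0 d (adjusted p = 1.96e-06) and 2.82 ± 0.45 higher at 5 d (adjusted p = 0.00061), and it fell by 2.24 ± 0.41 at 5 d against 2 d (adjusted p = 0.00536). In mesocarp it was 2.30 ± 0.41 above control at 0 d (adjusted p = 0.0053) and 1.53 ± 0.40 above at 5 d (adjusted p = 0.0107), the second of which had an adjusted p of 0.0539 without mesocarp control replicate 2. The log2 difference of epicarp from mesocarp was -1.53 ± 0.40 at 0 d (adjusted p = 0.0123), -1.99 ± 0.40 at 2 d (0.00193), -2.89 ± 0.42 at 5 d (0.000118) and -4.18 ± 0.47 in control fruit (3.44e-06). The 0 d call was lost without mesocarp 0 d replicate 3 (0.0751). TIP1.1 was the 1 member of 21 whose 0 d against control change differed between the tissues, where 2.56% of all genes were called (0.744% higher and 1.82% lower). The epicarp change exceeded the mesocarp change by 2.64 ± 0.59 (adjusted p = 0.0206), and this did not pass without epicarp 0 d replicate 2, epicarp control replicate 3, mesocarp 0 d replicate 2 or mesocarp control replicate 3 (0.053 to 0.0648).

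TIP3.2 (Solyc03g019820.3, chromosome 3, 55819202 to 55820542) was highest by mean at 5 d in both tissues. TIP3 proteins are best known from the protein storage vacuoles of seeds. In epicarp it was at 0.202, 2.87 and 2.71 TPM at 0 d, 37.6, 21.7 and 11.5 TPM at 2 d, and 197, 82.0 and 30.8 TPM at 5 d, against 0, 0 and 0.549 TPM in control, where the last is 6 reads. In mesocarp it was at 0, 7.13 and 3.52 TPM at 0 d, 11.7, 10.96 and 11.3 TPM at 2 d, and 109.5, 99.8 and 46.2 TPM at 5 d, against 4.001, 1.79 and 3.74 TPM in control. By mean the order was control, 0 d, 2 d and 5 d in both tissues, control and 0 d overlapped in each, and each 2 d library was above both.

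At 5 d against control, TIP3.2 was 9.07 ± 1.31 higher on the log2 scale in epicarp (adjusted p = 0.000299) and 4.98 ± 0.99 higher in mesocarp (adjusted p = 0.00151). The difference between the tissues in this change, 4.08 ± 1.599, did not pass (adjusted p = 0.295). With the replicate number as a block it was 3.82 and passed (adjusted p = 0.0494). The numbers were taken to pair the tissues at 5 d and not in control fruit. For that difference of changes without the block 0 members passed in edgeR, 3 had an unadjusted p under 0.05, DESeq2 also called 0, and 0.973% of all genes were called (0.214% higher and 0.759% lower). In epicarp the rise at 2 d against 0 d was 3.76 ± 0.97 (adjusted p = 0.0055). The mesocarp rise of 1.86 ± 0.89 between these stages did not pass (adjusted p = 0.144). At 5 d against 2 d the rise passed neither in epicarp, where the libraries overlapped (2.11 ± 0.85, adjusted p = 0.188), nor in mesocarp (2.87 ± 0.88, adjusted p = 0.0927). Epicarp was below mesocarp in control fruit (log2 difference -3.85 ± 1.35, adjusted p = 0.0411), a call lost without replicate 1 or 2 of epicarp control or replicate 1 or 3 of mesocarp control (0.0842 to 0.137) and with no filter on low counts (0.0571). The list of 121 genes whose descriptions hold seed storage words averaged 8635, 6727, 8750.4 and 7139 TPM in epicarp at 0 d, 2 d, 5 d and control, and 12756, 5301, 8503 and 12826 TPM in mesocarp. At 5 d against 2 d this list was higher by mean in both tissues, without overlap in mesocarp. Without its lipid-transfer and albumin genes, the 56 left averaged 136, 129, 99.96 and 112 TPM in epicarp and 104, 158, 134 and 331 TPM in mesocarp. These 56 were lower by mean at 5 d than at 2 d in both tissues, without overlap in epicarp. Both lists averaged highest in mesocarp control. At 5 d NOR fell from replicate 1 to replicate 3 in both tissues, as TIP3.2 did. At 0 d the libraries with the highest NOR, replicate 3 of each tissue, had 2.71 and 3.52 TPM of TIP3.2. The parts of seed tissue and of ripening stage in the TIP3.2 levels were not tested.

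TIP4.1 (Solyc08g066840.3, chromosome 8, 53805344 to 53807432) was low in skin, and lowest there at 2 d and 5 d. Epicarp had 9.45, 1.09 and 0.605 TPM at 0 d, 0.0587, 0 and 0 TPM at 2 d, 0, 0.256 and 0.369 TPM at 5 d, and 1.07, 1.77 and 1.35 TPM in control. Mesocarp had 22.8, 9.54 and 14.0 TPM at 0 d, 9.20, 11.3 and 14.8 TPM at 2 d, 22.1, 6.35 and 10.8 TPM at 5 d, and 66.5, 49.9 and 60.9 TPM in control. Every epicarp library was below every mesocarp library of its stage, and the mesocarp controls stood above all other libraries. In mesocarp against control its log2 difference was -1.83 ± 0.68 at 0 d (adjusted p = 0.133) and -1.92 ± 0.68 at 5 d (adjusted p = 0.0539), neither of which passed.

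The log2 difference of epicarp from mesocarp in TIP4.1 was -2.05 ± 0.71 at 0 d (adjusted p = 0.0499), -5.95 ± 0.94 at 5 d (adjusted p = 0.000236) and -5.25 ± 0.81 in control fruit (adjusted p = 0.00011). The 0 d call was lost without epicarp 0 d replicate 2 or 3, or mesocarp 0 d replicate 1 or 3 (0.0656 to 0.154). At 2 d the epicarp held 1 read in all and the mesocarp 549 reads, a depth-scaled ratio of 0.0017 with a 95% interval of 4e-05 to 0.00964 for counting error (adjusted p = 7.19e-05). Within epicarp, 1 read at 2 d against 170 at 0 d gave a ratio of 0.0054 with an interval of 0.00014 to 0.03066 (adjusted p = 0.000346), and 146 of the 170 reads were in replicate 1. TIP4.1 was the 1 member whose 2 d against 0 d change differed between the tissues without the block (adjusted p = 0.0332, where 1.24% of all genes were called, 0.668% higher and 0.576% lower). With epicarp 0 d replicate 1 left out it was lost, as it was without any epicarp 2 d library, mesocarp 0 d replicate 2 or any mesocarp 2 d library (0.0525 to 0.124). A list of 29 vascular genes, 22 of them with reads, was also lower in epicarp and highest by mean in mesocarp control. It summed to 114 to 181 TPM over all epicarp libraries and to 788, 431 and 212 TPM in mesocarp at 0 d. The sums were 213 to 292 TPM in mesocarp at 2 d and 5 d and 582 to 782 TPM in mesocarp control. From 0 d to 5 d the list's mesocarp mean went from 477 to 254 TPM, and that of TIP4.1 from 15.4 to 13.1 TPM. In epicarp the list averaged 151 TPM at 0 d and 132 TPM at 2 d, where TIP4.1 went from 170 reads to 1. The part of vascular tissue in the TIP4.1 levels was not tested.

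**Figure D4:**
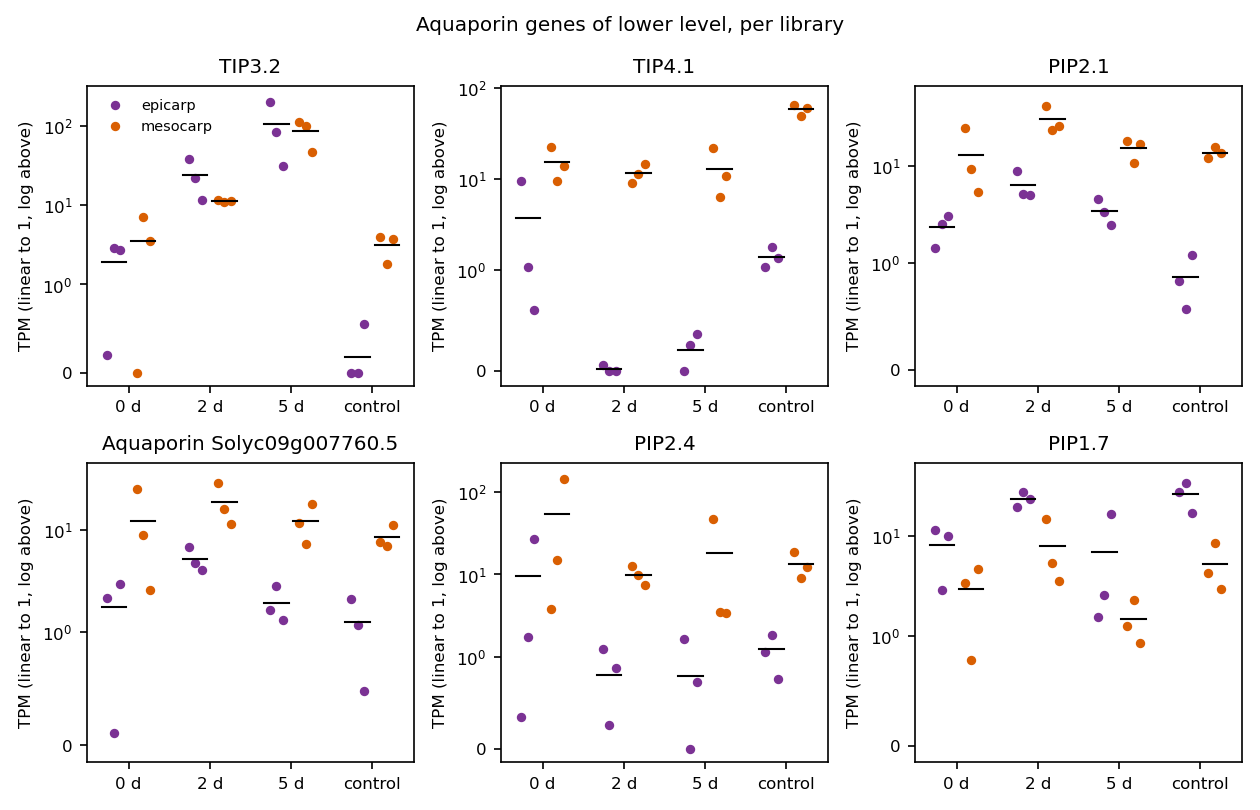
Level in TPM of 6 less abundant aquaporin genes in each library, by stage, on an axis that is linear up to 1 and logarithmic above, with epicarp (purple) left of mesocarp (orange) and the mean of 3 libraries as a line. TIP3.2 is at 30.8 TPM or more at 5 d in both tissues, and TIP4.1 stays at or below 0.369 TPM in epicarp at 2 d and 5 d.

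The remaining TIP genes were low in TPM. TIP2.2 (Solyc03g120470.4, chromosome 3), a gene that spans 9236 bases, was between 6.69 and 24.5 TPM over all libraries. TPM divides its reads by that whole span, and by reads it was above TIP1.1 in some skin groups. It held 2262 reads in control epicarp and 2853 in epicarp at 5 d, where TIP1.1 held 124 and 831. Its epicarp libraries at 0 d were at 24.5, 13.3 and 12.5 TPM, its mesocarp libraries at 12.7, 8.86 and 9.45 TPM, and its epicarp controls at 9.68, 10.3 and 11.3 TPM. It was 0.69 ± 0.21 higher in epicarp than in mesocarp at 0 d (adjusted p = 0.0264) and 0.63 ± 0.21 above control in epicarp at 0 d (adjusted p = 0.0389). Epicarp 0 d replicate 1 is the high library, and without it the 2 calls were lost, as they were for other single libraries: mesocarp 0 d replicate 2 or 3 for the first (0.104 to 0.291 in all), and epicarp 0 d replicate 2 or any epicarp control for the second (0.0581 to 0.399 in all).

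Some TIP calls rested on few reads. TIP2.3 (Solyc06g060760.3, chromosome 6) had 5, 34 and 6 reads in the epicarp controls and 0 in the mesocarp controls, which is at least 14.3-fold higher against a floor of 3 reads over the group (adjusted p = 0.0182). It lost this call without epicarp control replicate 2 or any mesocarp control (0.0508 to 0.0756). In mesocarp it was at 5.45, 2.30 and 0 TPM at 2 d and 0, 0.445 and 0 TPM at 0 d, groups that overlap, a log2 difference of 4.16 ± 1.47 (adjusted p = 0.0481). That call failed without mesocarp 0 d replicate 1 or 3, or mesocarp 2 d replicate 1 or 2 (0.0813 to 0.207). TIP2.1 (Solyc12g044330.2, chromosome 12) had 1 read in epicarp and 56 reads in mesocarp at 5 d, a ratio of 0.0184 with an interval of 0.00046 to 0.10653 (adjusted p = 0.0383), lost without any epicarp 5 d library or mesocarp 5 d replicate 2 or 3 (0.0574 to 0.152). With the pairing as a block TIP2.1 was also lower in epicarp at 0 d (log2 difference -4.67, adjusted p = 0.011) and 2 d (-3.48, adjusted p = 0.0441). TIP1.3 (Solyc10g083880.2, chromosome 10) had 0 reads in all 6 control libraries, and 0, 4 and 36 reads in epicarp and 0, 76 and 83 in mesocarp at 0 d, and it was called in no comparison.

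Of the other unassigned genes, the aquaporin Solyc01g094690.5 (chromosome 1, 78398328 to 78401206) was lower in skin throughout. It averaged 41.7 ± 9.9, 31.7 ± 3.0, 15.8 ± 7.3 and 25.3 ± 3.8 TPM in epicarp at 0 d, 2 d, 5 d and control, and 75.1 ± 18.999, 61.9 ± 13.8, 44.8 ± 8.8 and 56.1 ± 8.7 TPM in mesocarp (SD, n = 3 each). The log2 differences were -0.85 ± 0.28 at 0 d (adjusted p = 0.0381), -1.05 ± 0.28 at 2 d (0.0125), -1.55 ± 0.28 at 5 d (0.000855) and -0.99 ± 0.28 in control fruit (0.0124). The 5 d call held with each library left out in turn. The 0 d call was lost without epicarp 0 d replicate 2 or 3 or mesocarp 0 d replicate 1 or 2 (0.0528 to 0.131), the 2 d call without epicarp 2 d replicate 2 or mesocarp 2 d replicate 3 (0.0545 to 0.056), and the control call without epicarp control replicate 3 or mesocarp control replicate 3 (0.0567).

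The aquaporin-like gene Solyc08g077950.1 (chromosome 8, 59949664 to 59950761) was the sixth gene by mean level. It was at 83.2, 25.2 and 23.9 TPM in epicarp at 0 d, 48.3, 54.0 and 61.2 TPM at 2 d, 29.3, 26.2 and 31.0 TPM at 5 d, and 47.8, 53.9 and 53.9 TPM in control. In mesocarp it was at 108, 32.3 and 34.9 TPM at 0 d, 49.8, 35.7 and 50.9 TPM at 2 d, 41.3, 31.9 and 42.0 TPM at 5 d, and 77.3, 64.4 and 64.1 TPM in control. Replicate 1 was the highest at 0 d in both tissues, which are the libraries with the highest CD1 of their groups. It was called in no comparison, but with the pairing as a block it was lower in epicarp at 0 d (log2 difference -0.44, adjusted p = 0.0448) and at 5 d (-0.46, adjusted p = 0.0394). The aquaporin Solyc08g008045.1 stayed at or below 2.47 TPM in every library and passed only with the block, at 0 d (lower in epicarp, log2 difference -3.48, adjusted p = 0.0205).

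Of the other tested members, PIP2.12 and PIP2.11 were at 4.54 TPM or less and the gene described as TIP1-2 (Solyc04g161850.1) between 1.26 and 4.22 TPM, and none of the 3 was called. The filter removed 4 members with reads, none above 43 reads in a library: PIP2.5, TIP5.1, TIP1.2 and Solyc04g074620.1. TIP1.2 had reads in both tissues at 2 d, 3, 1 and 2 in epicarp and 43, 15 and 4 in mesocarp, 0 in epicarp at 5 d and 2, 3 and 9 in mesocarp at 5 d, and 0 in all libraries of 0 d and control. The 5 members with 0 reads in every library were TIP2.5 and genes described as TIP1-2 or TIP1-3, and 4 of these 5 span under 1000 bases. None of the 30 genes overlaps another gene.

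Proton pumps of the same membranes set up the gradients that drive the solute uptake which water follows, and 2 description-based lists of them were set beside the aquaporins. Of 41 vacuolar pump genes, 35 were tested, and in epicarp against mesocarp 2 were higher and 16 lower at 0 d, 1 and 19 at 2 d, 2 and 20 at 5 d, and 2 and 17 in control fruit, where 18.3%, 18.5%, 17.5% and 26.8% of all genes were called. The V-type ATPase subunit G gene Solyc04g049330.3 averaged 144 ± 15.7 TPM in epicarp and 309 ± 31.3 TPM in mesocarp at 5 d (SD, n = 3 each), a log2 difference of -1.15 ± 0.13 (adjusted p = 9.26e-06). At 5 d against control 3 rose and 7 fell in epicarp, where 14.9% of all genes were called. In mesocarp 2 rose and 6 fell, a share near the 20.3% of all genes called there. Another pyrophosphate-driven pump, Solyc12g009840.2, was at 6.18 ± 1.83 TPM at 5 d and 19.4 ± 0.8 TPM in control epicarp (log2 difference -1.59 ± 0.42, adjusted p = 0.015). Of 9 plasma membrane pump genes 2 were tested, and 1 of these, the H+-ATPase Solyc06g071100.4, rose at 5 d against control. It was at 216 ± 43.3 TPM against 116 ± 5.1 TPM in epicarp (log2 difference 0.96 ± 0.29, adjusted p = 0.0333). In mesocarp it was at 148 ± 7.0 TPM against 98.0 ± 14.0 TPM (0.86 ± 0.29, adjusted p = 0.0423). The median log2 difference of the 2 genes was -0.24 in epicarp and -0.77 in mesocarp, so the other gene was lower at 5 d in both tissues, without being called.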

How the data were processed

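RNA of epicarp and mesocarp was sequenced as 150-base pairs, per the labels' protocols, in 24 libraries. The authors deposited whole read counts per gene, and their tools were Trimmomatic 0.39, featureCounts and DESeq2, per the submitters' processing notes. No source used here names the aligner or the use of strand. The authors also deposited TPM values, which equal those counts divided by the gene's start-to-end interval and scaled per library. Among the count columns, 2 share the name of mesocarp 2 d replicate 3, and no column names mesocarp 5 d replicate 3. Both were left out, and the reads of these 2 libraries were recovered from their TPM columns: 100.0% of values came out whole within 0.01, and the same step returned the deposited counts of all 34688 genes in the other 22 libraries. Every mesocarp 2 d or 5 d value rests in part on them.

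Counts were tested with edgeR 4.0.16 (R 4.3.3): TMM scaling, filterByExpr by group (19620 genes kept), 1 mean per group, robust quasi-likelihood fits, and Benjamini-Hochberg adjustment over all genes in each of 15 comparisons. SE is the log2 difference over the square root of F. DESeq2 1.42.0 and the other settings in the closing section are alternatives; leaving out both 0 d libraries numbered 1, or both numbered 3, was added after the data were seen. The test was checked on simulated counts. Tables were made with Python 3.11.15 and pandas 2.3.3.

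Members, gene lists and the rule for named genes were chosen with earlier results of these data known. Any member may be named; values per library are given for the 6 of highest mean level and the 4 or fewer with the largest changes called per comparison, and at most 2 pump genes are named per comparison. Replicate numbers were taken to pair skin and flesh where all 3 same-numbered deviations from the group means correlated above 0.1 over genes. The correlations ran from 0.385 to 0.644 at 0 d, from 0.124 to 0.171 at 2 d, from 0.194 to 0.305 at 5 d, and from 0.045 to 0.212 in control fruit, which fell short. No comparison within a tissue met this, though a single correlation there reached 0.145 (epicarp, 5 d against 2 d). The labels do not say that same-numbered skin and flesh came from the same fruit. Intervals and the 3-read floor cover counting error only.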

Additional observations from a re-analysis of the deposited data

Results flagged for a closer look

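TIP1.1 changed by more in skin than in flesh at 0 d against control, with a difference of changes of 2.64 on the log2 scale by edgeR (adjusted p = 0.0206), and its level was higher at 0 d than in control in every library of both tissues. TIP4.1 differed between the tissues in its change at 2 d against 0 d, at a fitted -6.75 (adjusted p = 0.0332); with 1 read in the 3 epicarp libraries at 2 d, the size of that value depends on the fit and is no bound. Both were picked out because the test of the difference between the tissues passed. The first had adjusted p of 0.123 and the second of 0.163 where only the groups compared set the spread.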

How the results depend on the processing

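Of 62 member calls over all comparisons, 61 held with DESeq2 size factors, 62 with DESeq2's own test, 57 with no filter on low counts, 59 with the replicate block and 38 with only the groups compared (20 lost, and 4 calls of TIP2.1, TIP2.3 and TIP4.1 without a value, their genes not passing the filter there), and none reversed. Both 0 d libraries numbered 1 left out kept 23 calls and lost 5, and both numbered 3 kept 19 and lost 9; leaving out single libraries kept 32 of the 62 in every case. DESeq2's test gave 5 called members for epicarp 0 d against control, 2 for epicarp 5 d against 2 d, 3 for mesocarp 5 d against 2 d and 2 for the tissue difference at 0 d against control. With only the groups compared, fewer libraries set the spread: epicarp against mesocarp at 0 d gave 0 (7 at an unadjusted p under 0.05), epicarp 0 d against control 1, epicarp 5 d against 2 d 2, epicarp 5 d against control 9, mesocarp 0 d against control 0 (6), mesocarp 2 d against 0 d 2, mesocarp 5 d against 2 d 4, and the tissue differences at 0 d against control and 2 d against 0 d 0 each (2 and 1). Without the recovered libraries, mesocarp 5 d against 2 d and the tissue difference at 2 d against 0 d gave 0 each, where the full set gave 1 each. The calls lost there were Solyc01g094690.5 at 2 d, Solyc09g007760.5 and TIP2.1 at 5 d, PIP2.1 and PIP2.9 in mesocarp and that of TIP4.1. The replicate block gave 2 for the tissue difference at 2 d against 0 d (TIP4.1 and PIP1.3) and 1 at 5 d against control (TIP3.2); numbers did not pair samples within a tissue, where the block lost TIP2.2 and PIP1.5 in epicarp and TIP2.3 in mesocarp and gained TIP4.1 at 5 d against control in mesocarp, lower at 5 d (-2.04, adjusted p = 0.0482). In control fruit, not paired either, it gave 12, and it changed no other call but those given in the report. With both 0 d libraries numbered 1 left out, epicarp 0 d against control gave 7, mesocarp 0 d against control 6 and the tissue difference at 0 d against control 2; with both numbered 3 left out, epicarp against mesocarp at 0 d gave 4, epicarp 0 d against control 5 and that tissue difference 2. Leaving out single libraries gave, for epicarp against mesocarp, between 5 and 11 at 0 d, 4 and 6 at 2 d, 5 and 7 at 5 d and 4 and 8 in control; in epicarp 2 to 6 at 0 d against control, 4 to 7 at 2 d against 0 d, 1 to 3 at 5 d against 2 d and 4 to 7 at 5 d against control; in mesocarp 2 to 4, 1 to 5, 0 to 1 and 3 to 5 in the same order; and for the tissue differences 0 to 2, 0 to 1 and 0 to 0 at 0 d against control, 2 d against 0 d and 5 d against control. The tissue difference of 1 at 0 d against control became 0 without epicarp 0 d replicate 2, epicarp control replicate 3, mesocarp 0 d replicate 2 or mesocarp control replicate 3, and 2 without epicarp 0 d replicate 3; that of 1 at 2 d against 0 d became 0 without any 2 d library or mesocarp 0 d replicate 2. Leaving out epicarp 0 d replicate 1 also lost the TIP4.1 call in that last comparison. The cause of these changes was not tested.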
